A study of Mus musculus with 27 samples.

Results

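The haemoglobin genes of the mouse optic stalk at embryonic day 14 are described here by their RNA in 27 libraries. The 7 genes Hba-x, Hba-a1, Hba-a2, Hbb-y, Hbb-bh1, Hbb-bs and Hbb-bt were taken by their symbols from a count table of 55487 genes, and all 7 were found, each as 1 gene identifier. Hba-x (chr11:32276400-32278116), Hba-a1 (chr11:32283511-32284465) and Hba-a2 (chr11:32296489-32297298) lie in that order on the plus strand of chromosome 11 (build GRCm38). Hbb-y (chr7:103851749-103853216), Hbb-bh1 (chr7:103841637-103843164), Hbb-bs (chr7:103826534-103828096) and Hbb-bt (chr7:103812524-103813996) follow each other on the minus strand of chromosome 7. Their exonic length is between 613 and 938 bases, and 0 of these bases are shared with another annotated gene.

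Haemoglobin is built from alpha-type and beta-type globin chains, each encoded in a gene cluster of its own. The first red cells of the embryo come from the yolk sac and carry embryonic chains, zeta from Hba-x epsilon-y from Hbb-y and beta-h1 from Hbb-bh1. Cells made later by the fetal liver carry the definitive chains, alpha from Hba-a1 and Hba-a2 and beta from Hbb-bs and Hbb-bt, and both kinds of cell circulate together in the midgestation embryo. Embryonic and definitive are used below as names of genes, and shares of their RNA are not shares of cells. Neural tissue of the optic stalk does not make red cells, so globin RNA there is commonly read as blood in or around the tissue.

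The study compared control embryos with Smarcc1-DCT-cKO embryos, in which floxed Smarcc1, encoding the Baf155 core protein of SWI/SNF remodellers, is deleted where Dct-Cre is active (Dct is a gene of pigment cells). The mice were on a C57Bl6/J background and carried a Z/EG reporter, and controls were littermates without Dct-Cre. From each of 4 control and 5 mutant embryos, laser capture of frozen sections gave a dorsal piece, a ventral piece and a piece of the region of retinal ganglion cell axons, which makes 6 groups. Libraries with the same genotype and the same number in their title are taken below as the same embryo. Control 1 and mutants 1 to 3 belong to batch A, and controls 2 to 4 and mutants 4 and 5 to batch B.

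The pairs Hba-a1 with Hba-a2 and Hbb-bs with Hbb-bt are near-identical, and the sequences of the coding stretch where each pair differs are shown because they set how well reads can be told apart. The capital marks the 1 base that differs within each pair.
Hba-a1: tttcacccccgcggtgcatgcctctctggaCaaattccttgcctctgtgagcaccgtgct
Hba-a2: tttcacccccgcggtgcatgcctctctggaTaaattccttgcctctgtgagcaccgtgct
Hbb-bs: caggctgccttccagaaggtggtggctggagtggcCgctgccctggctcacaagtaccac
Hbb-bt: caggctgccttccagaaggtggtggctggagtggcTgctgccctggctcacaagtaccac
These stretches lie in GRCm38 at chr11:32284313-32284372 and chr11:32297130-32297189 on the plus strand, and at chr7:103826668-103826727 and chr7:103812659-103812718 on the minus strand, each within 1 exon. Hba-a1 and Hba-a2 differ at 1 of 426 coding bases, and Hbb-bs and Hbb-bt at 1 of 441. Outside the coding part the transcripts differ more, so that 284 of the 550 windows of 150 bases (the read length) in Hba-a1 and 139 of 405 in Hba-a2 are unique to that gene. Of the windows in Hbb-bs 198 of 479 are its own, and 273 of 554 in Hbb-bt. How reads that match both genes of a pair were counted is not given in the sources used here, so the split within each pair is uncertain. If they were left out, the levels of both pairs would be too low against Hba-x, Hbb-y and Hbb-bh1. The order of the genes and the embryonic shares given below carry this doubt as well. Hba-x, Hbb-y and Hbb-bh1 share 0 windows of 150 bases with another haemoglobin gene. The coding sequence of Hba-x is 61.7% identical to that of Hba-a1 and that of Hbb-y 76.4% identical to that of Hbb-bh1.

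Promoters of 1 embryonic and 1 definitive gene of each cluster are printed, and whether they bear on the levels across libraries was not tested. Each is the 120 bases before the gene's start in RefSeq (build GRCm38.p6), read along the gene's strand, and the motif CACCC, the motif CCAAT and the motif TATAA, searched on both strands, are in capitals.
Hba-x: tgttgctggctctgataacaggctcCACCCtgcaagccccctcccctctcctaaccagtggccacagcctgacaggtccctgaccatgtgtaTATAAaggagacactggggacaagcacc
Hba-a1: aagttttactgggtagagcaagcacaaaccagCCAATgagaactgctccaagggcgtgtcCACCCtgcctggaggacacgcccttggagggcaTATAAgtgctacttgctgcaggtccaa
Hbb-y: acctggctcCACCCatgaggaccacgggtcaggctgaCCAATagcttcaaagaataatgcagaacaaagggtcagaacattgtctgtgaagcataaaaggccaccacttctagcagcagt
Hbb-bs: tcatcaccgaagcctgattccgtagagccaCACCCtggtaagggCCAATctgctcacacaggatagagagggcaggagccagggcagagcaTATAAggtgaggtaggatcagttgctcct
They lie at chr11:32276480-32276599, chr11:32283552-32283671, chr7:103853208-103853327 and chr7:103827929-103828048. Of the 7 genes, 6 were matched in the promoter table, and Hbb-bh1 was not. CACCC was found in 6 of these 6 windows, against 31.7% of 32851 promoters of the same length. CCAAT stood in 5 of 6 (21.3% of all promoters), with none in Hba-x, and TATAA in 5 of 6 (11.8%), with none in Hbb-y. The 3 motifs occurred together in 4 of 6 windows and in 0.688% of all promoters. These 4 windows are those of Hba-a1, Hba-a2, Hbb-bs and Hbb-bt. Those of Hba-a1 and Hba-a2 are the same sequence apart from a small shift, and those of Hbb-bs and Hbb-bt resemble each other. The 4 are therefore not independent of each other. A match is a string of letters and was not tested as a binding site.

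The libraries held 10.9 to 34.0 M counts (M, 1e6), and levels are given as CPM, counts per M counts of the library. Smarcc1, the deleted gene, was at 75.9 to 289 CPM in dorsal controls and 2.26 to 107 CPM in dorsal mutants, which overlap. It was at 75.7 to 198 CPM in ventral controls against 14.7 to 64.4 CPM in ventral mutants, and at 50.1 to 242 CPM against 1.86 to 44.9 CPM in axon pieces, with no overlap. Summed axon markers (Gap43, Nefl, Nefm and 5 others) ran from 1129 to 2778 CPM in the 9 axon libraries and from 4.17 to 1336 CPM in the 18 others, although Pou4f2, which marks retinal ganglion cells, was at 0 in 25 of 27. Summed optic stalk markers (Pax2, Vax1, Vax2, Sox2, Sox9 and Fabp7) were above 181 CPM in all 27 libraries. Most of this sum came from Fabp7, Sox9 and Sox2, with means of 646, 229 and 89.4 CPM. Pax2 had a median of 10.3 CPM, Vax1 was at 0 in 9 libraries and Vax2 in 15. No 2 libraries held identical counts.

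Haemoglobin RNA varied widely between libraries of the same group. The 7 genes together were at 2216, 728, 24343 and 2847 CPM in dorsal controls 1 to 4 and at 1789.6, 176, 7267, 2995 and 4573 CPM in dorsal mutants 1 to 5. In ventral pieces they summed to 272, 2197, 5255 and 3320.0 CPM in controls and to 503, 2.27, 912, 440.0 and 1201 CPM in mutants. In the axon region they summed to 2560.3, 4474, 9015 and 4302 CPM in controls and to 3975, 609, 33022, 9509 and 8252 CPM in mutants. Axon mutant 3 and dorsal control 3 stood highest and together held 41.9% of all haemoglobin CPM of the 27 libraries, while ventral mutant 2 had only 37 haemoglobin counts and stood lowest. The highest library exceeded the lowest 14519-fold, and the median was 2847 CPM. In pieces of tissue, fewer red cells and less globin RNA per red cell cannot be told apart.

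Within an embryo the order axons, dorsal, ventral was the most common, in 6 of 9 embryos (control 1 and all 5 mutants). The axon piece held more haemoglobin RNA than the ventral piece in 9 of 9 embryos, from 1.30-fold in control 4 to 268-fold in mutant 2, with a median of 7.90-fold. It exceeded the dorsal piece in 8 of 9 embryos (median 2.22-fold), control 3 being the exception. The dorsal piece exceeded the ventral piece in 7 of 9 embryos (median 4.63-fold), 2 of 4 controls and 5 of 5 mutants. The fold from ventral to axons was 9.42, 2.04, 1.72 and 1.30 in controls 1 to 4 and 7.90, 268, 36.2, 21.6 and 6.87 in mutants 1 to 5, so the lowest mutant lay below the highest control. These sums are described and carry no test.

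**Figure D1:**
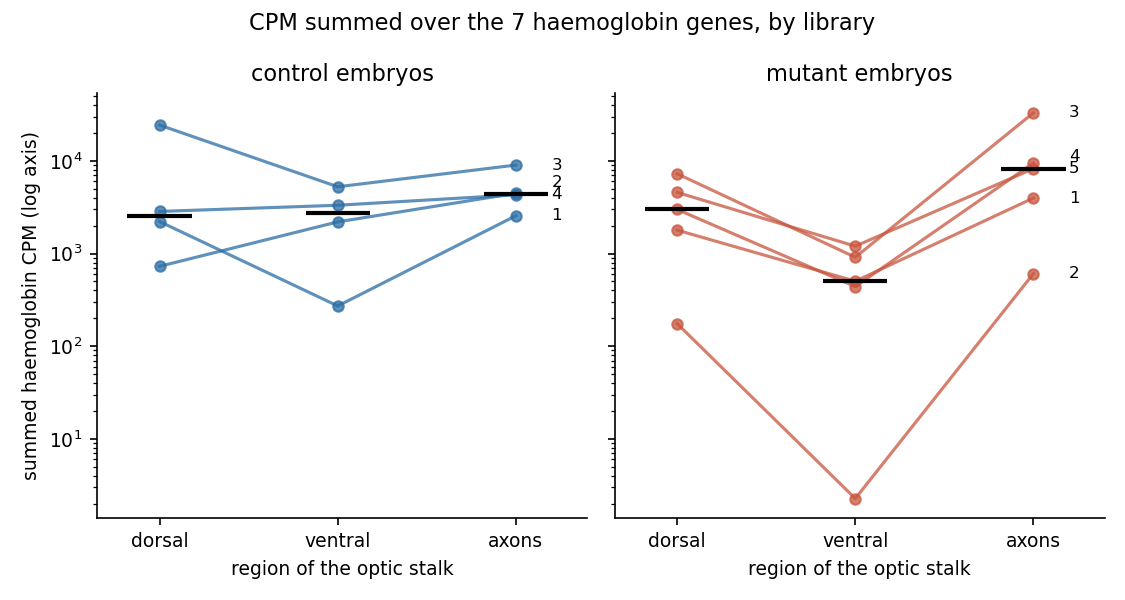
CPM summed over the 7 haemoglobin genes (log axis) in the dorsal, ventral and axon piece of each embryo, controls on the left and mutants on the right. Each line joins the 3 libraries of 1 embryo, whose number stands at its right end, and black bars are group medians. In all 9 embryos the line rises from ventral to axons, and ventral mutant 2 lies far below the rest at 2.27 CPM.

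Among the embryonic genes, Hbb-y, the main embryonic beta-type gene, had the highest level. In dorsal pieces Hbb-y was at 1306, 18.3, 6622 and 663 CPM in controls 1 to 4 and at 58.8, 42.5, 2245, 694 and 1844 CPM in mutants 1 to 5. Its ventral values were 139, 637, 992 and 1517 CPM in controls and 167, 0, 151, 89.8 and 208 CPM in mutants. In the axon region it was at 268, 793, 4341 and 2272 CPM in controls and at 2295, 202, 10432, 1633 and 2639 CPM in mutants. Control and mutant libraries overlapped in every region, and the ventral mutants, all at or below 208 CPM, lay under 3 of the 4 ventral controls. The mean of Hbb-y over 27 libraries was 1566 CPM, rank 38 of 55487 genes by mean CPM.

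Hba-x, which encodes the embryonic zeta chain, was detected in 24 of 27 libraries. In dorsal pieces Hba-x was at 300.2, 0, 1815 and 133 CPM in controls 1 to 4 and at 20.3, 24.6, 455, 103 and 293 CPM in mutants 1 to 5. Its ventral values were 21.1, 75.6, 204 and 236 CPM in controls and 0, 0, 120.2, 50.3 and 14.8 CPM in mutants. In the axon region it was at 60.6, 180.1, 1181 and 233 CPM in controls and at 542, 59.8, 3421, 1739 and 247 CPM in mutants. The highest value was in axon mutant 3, and the 3 libraries at 0 were dorsal control 2 and ventral mutants 1 and 2, where 0 counts allow up to 0.186, 0.142 and 0.184 CPM (3 counts). Across the 27 libraries Hba-x and Hbb-y had a Pearson correlation of 0.88 in log2(CPM + 1), a description of libraries that share 9 embryos and a library total.

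Hbb-bh1, the other embryonic beta-type gene, was sparse. It was above 0 in all 4 axon controls, at 33.0, 8.67, 51.2 and 16.2 CPM, and in axon mutants 3 to 5, at 72.0, 198 and 37.2 CPM. Outside the axon region it was found in 5 libraries, dorsal control 1 (17.3 CPM), dorsal mutants 3 and 5 (17.5 and 78.0 CPM), ventral control 4 (30.0 CPM) and, with 1 count, dorsal control 3. The 5 ventral mutants were all at 0, as were 3 of 4 ventral controls. Where both were detected, Hbb-y exceeded Hbb-bh1 by a median of 77.6-fold in CPM per kilobase of exon and by at least 7.87-fold. The 15 libraries without Hbb-bh1 reached up to 5255 CPM of summed haemoglobin and the 12 with it began at 2216 CPM, so the 2 ranges overlap.

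Of the definitive genes, Hba-a1, one of the adult alpha-chain genes, was the most abundant and was detected in 27 of 27 libraries. In dorsal pieces Hba-a1 was at 409, 232, 5217 and 945 CPM in controls 1 to 4 and at 521, 52.5, 1673, 706 and 1170.0 CPM in mutants 1 to 5. Its ventral values were 68.3, 491, 1411 and 764 CPM in controls and 101, 0.615, 243, 87.1 and 394 CPM in mutants. In the axon region it was at 940.0, 1204, 1667 and 949 CPM in controls and at 621, 117, 6719, 2077 and 2543 CPM in mutants. The axon controls were close together at 1190.1 ± 341 CPM (SD, n = 4), the tightest of its 6 groups relative to the mean.

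Hbb-bs, one of the adult beta-chain genes, was likewise detected in 27 of 27 libraries. In dorsal pieces Hbb-bs was at 66.6, 269.7, 5353 and 676 CPM in controls 1 to 4 and at 591, 27, 1270.0, 825 and 701 CPM in mutants 1 to 5. Its ventral values were 18.5, 521, 1304 and 407 CPM in controls and 115, 1.66, 98.2, 91.8 and 346 CPM in mutants. In the axon region it was at 571, 1026, 614 and 452 CPM in controls and at 120.3, 143, 4679, 1988 and 1572 CPM in mutants. Dorsal control 3 stood highest and ventral mutant 2 lowest. Hba-a2 ranged over 10.6 to 3405 CPM in dorsal, 0 to 964 CPM in ventral and 46.4 to 4829 CPM in axon pieces. Hbb-bt ranged over 18.4 to 1931 CPM, 0 to 380.3 CPM and 40.6 to 2869 CPM in the same order. Both were at 0 in ventral mutant 2 alone. The 4 definitive genes varied closely together, with pairwise Pearson correlations of log2(CPM + 1) from 0.93 to 0.97 over 27 libraries, and Hbb-bh1 least, at 0.42 to 0.59 with the other genes.

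Per kilobase of exon, mean levels over the 27 libraries were ordered Hbb-y (2473 CPM per kb), Hba-a1 (1429 CPM per kb), Hbb-bs (1150.1 CPM per kb), Hba-a2 (972 CPM per kb), Hbb-bt (512 CPM per kb), Hba-x (455 CPM per kb) and Hbb-bh1 (33.8 CPM per kb). These means are pulled up by a few libraries, and the order of the medians was Hbb-y at 1096, Hba-a1 at 869, Hbb-bs at 678, Hba-a2 at 347, Hbb-bt at 261, Hba-x at 142 and Hbb-bh1 at 0 CPM per kb. Within a library the order of the leading genes was not fixed. Hbb-y was the highest beta-type gene per kilobase in 19 libraries and Hbb-bs in 8. Among the alpha-type genes Hba-a1 was highest in 26 libraries and Hba-a2 in 1. Within libraries Hbb-y was above Hba-a1 in 18 of 27, Hba-a1 above Hbb-bs in 17, Hbb-bs above Hba-a2 in 22, Hba-a2 above Hbb-bt in 19 and Hbb-bt above Hba-x in 19, so each of these neighbours changed places in some libraries. Hba-x was above Hbb-bh1 in 24 libraries, and both were at 0 in 3.

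**Figure D2:**
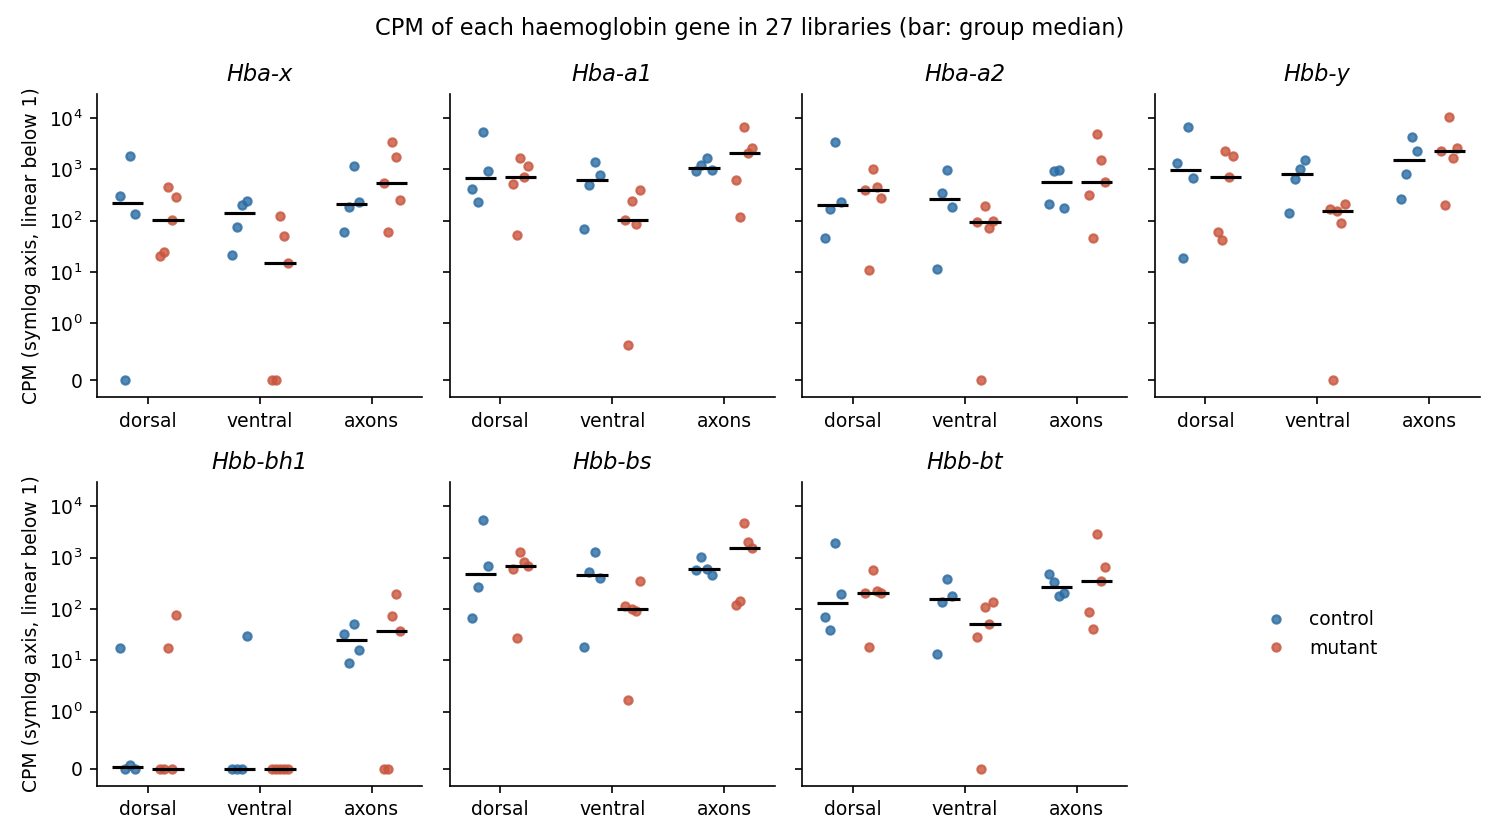
CPM of each haemoglobin gene in the 27 libraries, on a symmetrical log axis that is linear below 1 CPM, with controls in blue, mutants in red and black bars at group medians. The genotypes overlap in every panel and region, Hbb-bh1 is at 0 in most dorsal and ventral libraries, and 1 ventral mutant lies near 0 for every gene.

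The comparison of regions asked whether the haemoglobin RNA of a piece follows its place in the optic stalk, with the embryo as a block. Ventral pieces held less RNA of each of the 7 genes than axon pieces in the mean. In group means over 9 embryos, Hba-a1 was at 396 ± 453 CPM in ventral and 1871 ± 1964 CPM in axon pieces (SD, n = 9), and Hbb-y at 433 ± 515 and 2764 ± 3157 CPM. Both were lower in the ventral piece in 9 of 9 embryos, as were 0.931% of 16330 genes, and 0 of the 7 genes were higher in all embryos, against 1.24% of all genes. The exact sign-flip permutation test (two-sided) of the within-embryo difference of log2(CPM + 1) gave p = 0.00391 for each, the smallest p that 9 embryos allow. It gave 0.00781 for Hba-x, 0.0117 for Hba-a2 and for Hbb-bt, 0.0273 for Hbb-bs and 0.0313 for Hbb-bh1. These are 7 of 21 such tests over the regions and are not adjusted, and the 3 comparisons of regions share libraries. In the edgeR fit the log2 fold change of ventral over axons was -3.17 ± 0.78 (SE) for Hba-a1, -3.04 ± 0.96 for Hba-a2, -4.10 ± 1.40 for Hba-x, -3.36 ± 1.12 for Hbb-y, -2.77 ± 1.01 for Hbb-bs and -2.77 ± 0.90 for Hbb-bt. The fit called 0 of the 7 genes, with adjusted p from 0.0865 to 0.367 over all genes, and 7 of 7 had an unadjusted p under 0.05. It called 0.627% of the 16277 genes tested. DESeq2 called 7 of 7, at 19.7% of all genes, and limma voom 6 of 7, at 1.68%. The median log2 fold change of the 7 genes was -3.17 where that of all genes was 1.07. The median of all genes was 1.13 with RLE scaling and 0.23 with no replicate block.

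Dorsal pieces held more of the 4 definitive genes than ventral pieces of the same embryo in 8 of 9 embryos each. None of the 7 genes was higher in the dorsal piece of every embryo (0.343% of 16330 genes were) or lower in every one (0.667%). Hba-a1 averaged 1214 ± 1581 CPM in dorsal and 396 ± 453 CPM in ventral pieces (SD, n = 9), and Hbb-bs 1087 ± 1647 and 323 ± 411 CPM. The exact sign-flip p was 0.0117 for Hba-a1, Hba-a2 and Hbb-bs and 0.0195 for Hbb-bt. The embryonic genes were less regular, with exact p of 0.164 for Hba-x (higher in 7 of 9 embryos), 0.203 for Hbb-y (6 of 9) and 0.438 for Hbb-bh1 (4 of 9, lower in 1). The edgeR log2 fold change of dorsal over ventral was 2.12 ± 0.56 (SE) for Hba-a1, 2.03 ± 0.45 for Hbb-bs, 1.89 ± 0.59 for Hba-a2 and 1.90 ± 0.72 for Hbb-bt, and their 4 unadjusted p were under 0.05. It was 2.15 ± 1.30 for Hbb-y and 2.85 ± 1.48 for Hba-x. The fit called 0 of 7 genes, the lowest adjusted p being 0.201 for Hbb-bs, and 0.0857% of 16329 genes. DESeq2 called 5 (6.61% of all genes), and limma voom 6 (0.331%). Among controls alone the median log2 fold change of the 7 genes was 0.82 and among mutants alone 3.03.

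Dorsal and axon pieces differed less, and 0 of the 7 genes were higher in the dorsal piece of all 9 embryos (1.38% of all genes were) or lower in all 9 (0.894%). Means over 9 embryos were 1499 ± 2082 and 2764 ± 3157 CPM for Hbb-y (SD, n = 9) and 1087 ± 1647 and 1241 ± 1434 CPM for Hbb-bs. The exact sign-flip p ran from 0.0469 for Hbb-bh1 to 0.379 for Hbb-bs, and Hba-a1 was lower in the dorsal piece in 8 of 9 embryos (exact p = 0.0742). In edgeR the log2 fold change of dorsal over axons was -1.12 ± 0.34 (SE) for Hba-a1, -1.29 ± 0.44 for Hba-a2, -1.88 ± 0.89 for Hbb-y, -2.04 ± 1.33 for Hba-x, -1.02 ± 0.75 for Hbb-bs and -1.13 ± 0.59 for Hbb-bt. The fit called 0 of 7 genes and 0.847% of 16292, and Hba-a1 and Hba-a2 had an unadjusted p under 0.05. DESeq2 called 1 gene, Hbb-y (20% of all genes were called), and limma voom 0 (2.06%). Without control 3, the embryo whose dorsal piece was richest in haemoglobin, edgeR called Hba-a1 (log2 fold change -1.40 ± 0.24, adjusted p = 0.013) among 0.786% of 16275 genes.

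**Figure D3:**
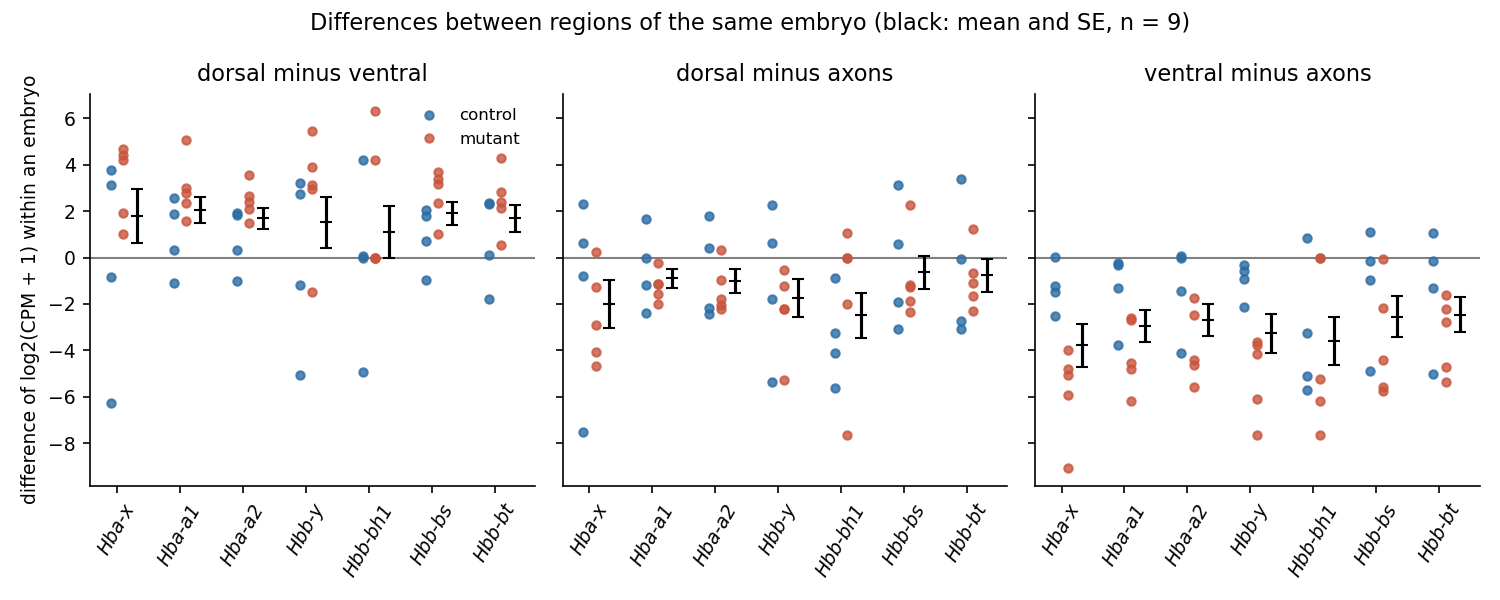
Difference of log2(CPM + 1) between 2 pieces of the same embryo for each haemoglobin gene, controls in blue and mutants in red, with the mean and SE over 9 embryos in black. For ventral minus axons all 9 points of Hba-a1 and of Hbb-y lie below 0, and for dorsal minus ventral 8 of 9 points of each definitive gene lie above it.

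Mitochondrial genes moved with the axon region as well, at 7.49% to 15.4% of counts in axon pieces and 3.72% to 7.63% in dorsal and ventral pieces. Their share had a Pearson correlation of 0.48 with the log2 summed haemoglobin CPM over 27 libraries, the summed mesenchyme markers one of 0.50, the number of genes detected one of -0.41 and the summed endothelial markers one of 0.28. The summed mural markers had one of 0.09. Markers of connective tissue and vessels differed between the regions too. In dorsal against ventral pieces all 10 endothelial markers had a log2 fold change above 0 (median 6.54, 5 at an unadjusted p under 0.05), as had all 9 mesenchyme markers (median 5.58, 7 at an unadjusted p under 0.05, Dcn called) and 6 of 7 mural markers tested (median 5.03). Of all genes 5.97% had an unadjusted p under 0.05 in that edgeR fit. In ventral against axon pieces 0 of 9 mesenchyme markers were above 0 (median -7.66, 8 at an unadjusted p under 0.05, Dcn called). Of the endothelial markers 1 of 10 was (median -2.64, 0 at an unadjusted p under 0.05), and of the mural markers tested 2 of 6 (median -0.68). In dorsal against axon pieces 9 of 10 endothelial (median 1.7) and 6 of 7 mural markers tested (median 3.72) were above 0. The median of all genes was 1.04 there. The 7 haemoglobin genes ran the other way, with 0 above 0 (median -1.29), as did the mesenchyme markers, with 1 of 9 above 0. Summed mesenchyme markers ran from 1144 to 10163 CPM in dorsal controls, 55.6 to 373 in dorsal mutants, 55.2 to 1284 in ventral controls, 53.2 to 181 in ventral mutants, 385 to 2504 in axon controls and 574 to 2239 in axon mutants. Mesenchyme markers summed to 10163 CPM in dorsal control 3, the highest of 27, where haemoglobin was also high, and to 1271 CPM in axon mutant 3. Their part in the haemoglobin levels was not tested.

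The comparison of genotypes asked whether deletion of Smarcc1 goes with another level of haemoglobin RNA. In the ventral pieces, mutants were below controls in the mean of each of the 7 genes. Hbb-y averaged 821 ± 581 CPM in ventral controls (SD, n = 4) and 123 ± 80.9 CPM in ventral mutants (SD, n = 5). Hba-a1 averaged 683 ± 563 and 165 ± 155 CPM. The groups overlapped for every gene, and exact permutation p (two-sided, 126 splits) ran from 0.0714 for Hbb-y to 0.444 for Hbb-bh1. Over the 40 splits that keep the batches, the p of Hbb-y was 0.075, and the smallest these can give is 0.025. In edgeR the log2 fold change of mutant over control was -2.03 ± 1.44 (SE) for Hbb-y and -1.06 ± 1.34 for Hba-a1. The fit called 0 of the 7 genes and 0.0% of 16139, with 0 of the 7 at an unadjusted p under 0.05. DESeq2 called 0 of 7 (2.12% of all genes) and limma voom 0 (0.031%). Without the filter on low counts edgeR called Hbb-y (adjusted p = 0.00188) among 0.0298% of 26874 genes (8 genes). The size of the ventral difference depended on single embryos. The median log2 fold change of the 7 genes was -1.31 with all embryos, -0.21 without mutant 4 (3 of 7 above 0), -0.57 without control 3 (1 of 7 above 0), -0.58 without mutant 5 (1 of 7 above 0) and -2.45 without control 1.

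In dorsal pieces the means followed control 3. Hba-a1 averaged 1701 ± 2364 CPM in controls (SD, n = 4) and 825 ± 621 CPM in mutants (SD, n = 5), and Hbb-y 2152 ± 3026 and 977 ± 1019 CPM. The medians were 677 and 706 CPM for Hba-a1 and 985 and 694 CPM for Hbb-y. Exact permutation p ran from 0.627 for Hba-a1 to 0.992 for Hba-x. The edgeR log2 fold change of mutant over control was -0.49 ± 1.37 (SE) for Hba-a1 and -0.86 ± 1.68 for Hbb-y, and without control 3 it was 0.79 and 0.64. Of the 7 genes 0 were called, against 0.0124% of 16145, and 0 had an unadjusted p under 0.05. DESeq2 (3.3% of all genes) and limma voom (0.322%) called 0 of 7 as well. Without the filter on low counts edgeR called 1, Hbb-y, among 0.385% of 26264 genes.

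In the axon pieces the means ran the other way, and mutants were above controls for 7 of 7 genes. Hba-a1 averaged 1190 ± 341 CPM in controls (SD, n = 4) and 2415 ± 2606 CPM in mutants (SD, n = 5), and Hbb-y 1919 ± 1824 and 3440 ± 4019 CPM. Axon mutant 3 was the highest and axon mutant 2 the lowest of all axon libraries for both, so the controls lay within the range of the mutants. Exact permutation p ran from 0.397 for Hba-x to 0.952 for Hba-a1. The edgeR log2 fold change was 1.07 ± 1.10 (SE) for Hba-a1 and 0.94 ± 1.72 for Hbb-y, with 0 of 7 genes called, 0.0% of 14977 genes called and 0 of 7 at an unadjusted p under 0.05. DESeq2 (8.23% of all genes) and limma voom (0.327%) called 0 of 7. Without the filter on low counts edgeR called 5 of 7 as higher in mutants, Hba-x, Hba-a1, Hba-a2, Hbb-y and Hbb-bs, among 0.0467% of 21429 genes (10 genes). The size of the difference rested on axon mutant 3. Without it 5 of 7 log2 fold changes were above 0 with a median of 0.046, against 1.11 with all libraries. The mutant mean was then 1692 ± 1078 CPM for Hbb-y and 286 ± 284 CPM for Hbb-bt (SD, n = 4), below the control means of 1919 and 298 CPM. It stayed above the control mean for Hba-x (647 against 414 CPM), Hba-a1 (1339 against 1190 CPM) and Hba-a2 (607 against 574 CPM). The same held for Hbb-bs (956 against 666 CPM) and Hbb-bh1 (58.8 against 27.3 CPM). With a replicate block in place of batch 3 of 7 were above 0. Across the 3 regions, 0 of the 21 gene comparisons separated the genotypes without overlap, where 2.89% of 16330 genes did so in dorsal, 1.21% in ventral and 1.18% in axon pieces.

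An interaction term, fitted to all 27 libraries, compared the genotype effect between regions. The effect in ventral minus that in axon pieces was -2.70 ± 1.00 (log2, SE) for Hba-a1 and -4.14 ± 1.77 for Hbb-y, and Hba-x, Hba-a1 and Hbb-y had an unadjusted p under 0.05. Of the 7 genes 0 were called (0.0% of 16330 genes). DESeq2 called 3 of them, Hba-a1, Hbb-y and Hbb-bh1 (9.68% of all genes), and limma voom 0 (0.135%). Between dorsal and ventral pieces edgeR called 0 of 7 (0.00612% of all genes), with 0 at an unadjusted p under 0.05, DESeq2 1, Hbb-bh1 (4.23%), and limma voom 0 (0.0429%). Between dorsal and axon pieces edgeR called 0 of 7 (0.0122%), with 0 at an unadjusted p under 0.05, DESeq2 0 (11%) and limma voom the 4 definitive genes (0.398%).

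The balance of embryonic to definitive globin RNA was taken as the embryonic share of counts per kilobase of exon, in the 26 libraries with at least 100 haemoglobin counts. Reads that match both genes of a pair come from definitive genes alone, so leaving them out of the counts would have raised this share. The share was 76.1, 2.97, 36.8 and 30.8% in dorsal controls 1 to 4 and 4.76, 39.7, 40.1, 29.2 and 52.2% in dorsal mutants 1 to 5. In ventral pieces it was 62.6, 35.4, 24.8 and 57.4% in controls and 36.8, 29.7, 32.6 and 21.2% in mutants 1, 3, 4 and 5. In axon pieces it was 15.8, 23.8, 64.2 and 62.6% in controls and 73.6, 45.6, 44.1, 37.5 and 39.3% in mutants. The share thus ran from 2.97% to 76.1% with a median of 37.2%, and each group overlapped each other group except for the ventral and axon mutants. The 4 ventral mutants with enough counts (21.2% to 36.8%) lay below all 5 axon mutants (37.5% to 73.6%), whereas ventral and axon controls overlapped. It also differed between pieces of 1 embryo, by up to 68.8 percentage points in mutant 1 (4.76% dorsal, 73.6% axons) and by as little as 8.32 points in mutant 4. Control 1 was highest of all in its dorsal piece and lowest of the axon pieces in its axon piece.

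The embryonic share differed between the alpha-type and the beta-type cluster. Hbb-y and Hbb-bh1 made up 6.65% to 92.8% of beta-type RNA per kilobase (median 52.9%), and Hba-x made up 0% to 35.8% of alpha-type RNA (median 14.4%). The beta-type share was above the alpha-type share in 26 of 26 libraries. Dorsal control 1 and axon mutant 1, with 91.8% and 92.8% embryonic beta-type RNA, had 35.8% and 32% Hba-x among alpha-type RNA. At the other end, dorsal control 2 and dorsal mutant 1 had 6.65% and 8.01% embryonic beta-type RNA and 0% and 1.73% Hba-x. Both shares did not always go together, since ventral mutant 1 had 58.1% embryonic beta-type RNA with 0% Hba-x, and axon mutant 5 had 58.7% with 6.23%. Alpha-type genes together took 27.2% to 57.9% of haemoglobin RNA per kilobase (median 40.0%).

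**Figure D4:**
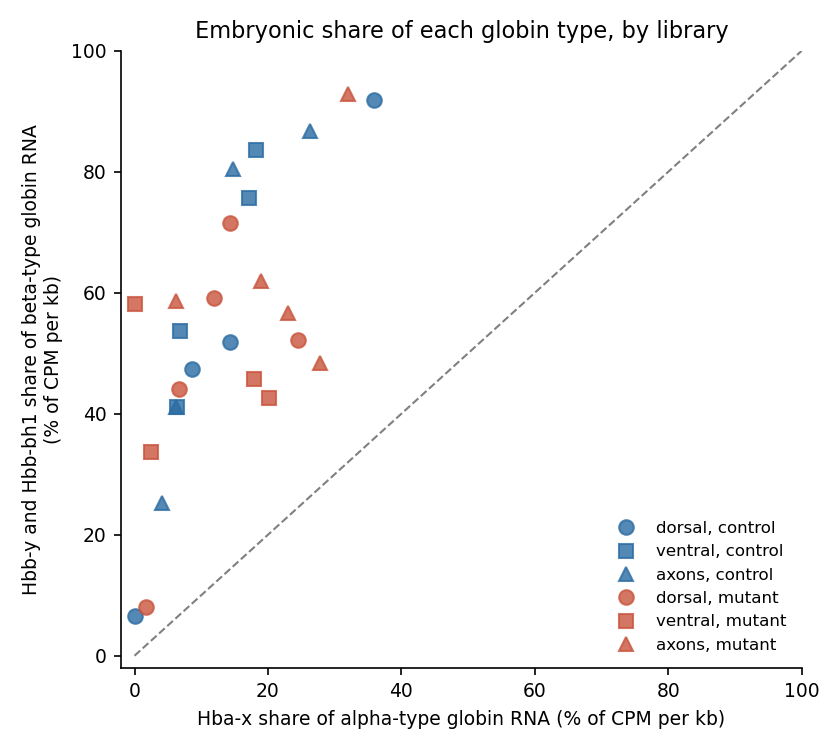
Share of embryonic genes in beta-type globin RNA (vertical axis, % of CPM per kb) against that in alpha-type globin RNA (horizontal axis), 1 point for each of the 26 libraries with at least 100 haemoglobin counts, with regions by symbol and genotypes by colour. All 26 points lie above the dashed line of equal shares, and no region or genotype takes a corner of its own.

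By the ratio of counts of the near-identical alpha-chain genes the embryos could be put into 2 sets. Hba-a1 over Hba-a2 was 8.81, 5.91 and 4.39 in the dorsal, ventral and axon piece of control 1, 4.08, 4.18 and 5.43 in control 4, and 4.17, 3.97 and 4.57 in mutant 5. Mutant 2 had 4.95 in its dorsal and 2.51 in its axon piece. In the 5 other embryos (controls 2 and 3 and mutants 1, 3 and 4) all ratios lay between 1.11 and 2.01. Each of these 2 sets of embryos holds both genotypes and both batches, and within an embryo the ratio moved by at most 2.01-fold. The gap between the sets, from 2.01 to 2.51, is smaller in fold than the moves within some embryos. These were 2.01-fold in control 1, 1.97-fold in mutant 2 and 1.81-fold in mutant 1. The sets were seen in the data and carry no test. Hbb-bs over Hbb-bt showed no such grouping, and moved by 1.24-fold to 3.07-fold within an embryo. Since reads shared by a pair may be counted in ways not given here, the ratio is one of counts as deposited, not of RNA made by each gene.

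**Figure D5:**
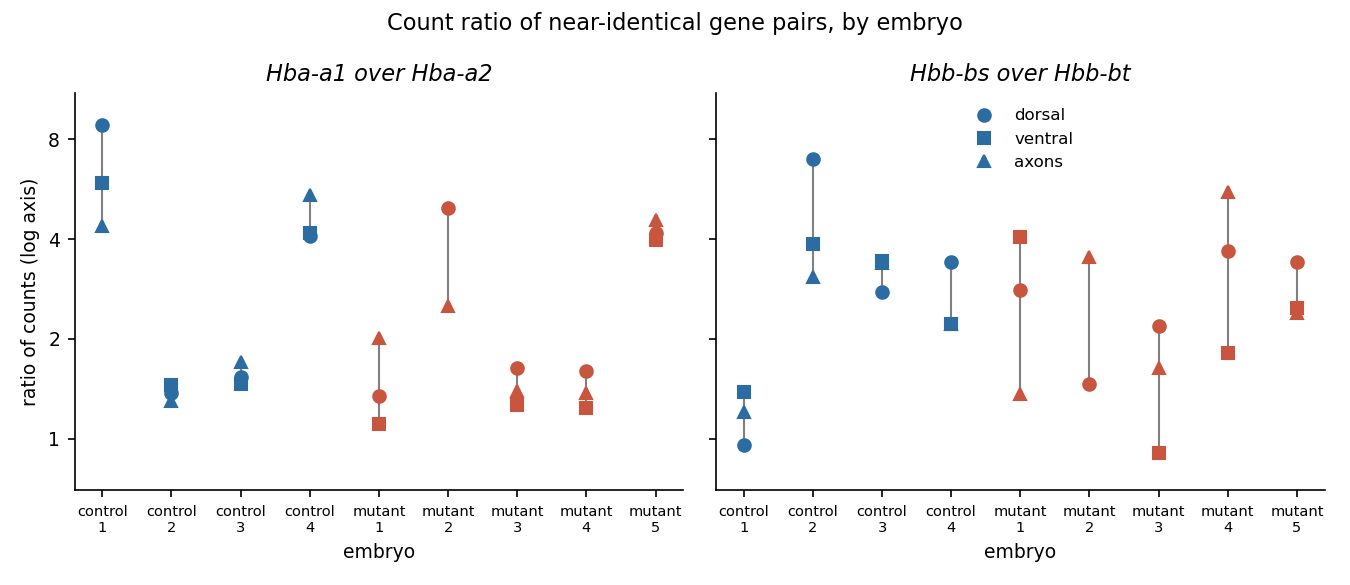
Ratio of counts (log axis) of Hba-a1 to Hba-a2 on the left and of Hbb-bs to Hbb-bt on the right, for each embryo, with the 3 pieces by symbol, controls in blue, mutants in red and a grey line over the range of the embryo. On the left the pieces of controls 1 and 4 and mutants 2 and 5 lie above 2.5 and those of the 5 other embryos between 1.11 and 2.01.

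Other genes of red cells were sparse beside the globins. Of 44 erythroid genes listed (membrane and cytoskeleton, haem synthesis and iron uptake, transcription factors, and globin chaperone and red cell enzymes), 43 were matched, all but Ahsp, and 25 passed the filter on low counts. In each of the 9 comparisons edgeR called 0 of them. At an unadjusted p under 0.05 there were 3 of 25 in ventral against axons (12%, against 11.4% of all genes), 2 of 25 in dorsal against axons (8%, against 12.6%), 1 of 25 in dorsal against ventral (4%, against 5.97%) and 0 in the 3 genotype comparisons (against 5.35% in dorsal, 3.19% in ventral and 3.55% in axon pieces). For the difference of the genotype effect there were 2 of 25 between dorsal and ventral (8%, against 2.30%), 1 of 25 between dorsal and axons (4%, against 4.95%) and 1 of 25 between ventral and axons (4%, against 3.9%). The 6 of highest mean CPM were Prdx2 (1785 CPM), Urod (131 CPM), Alad (113 CPM), Mkrn1 (69.8 CPM), Fech (59.9 CPM) and Tfrc (54.9 CPM), of which Urod, Alad and Fech are haem synthesis enzymes and Tfrc takes up iron. Many cell types use these genes, and Prdx2, a peroxidase abundant in red cells, ran from 1223 to 3132 CPM across the 27 libraries.

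Genes used as markers of red cells were often missing. Alas2, the erythroid first enzyme of haem synthesis, was at 0 in 15 of 27 libraries, among them dorsal control 3 with 24343 CPM of haemoglobin, and at 2.18 to 89.9 CPM in the rest. It was at 82.4 CPM in axon mutant 3, the library richest in haemoglobin. Slc4a1, the red cell anion exchanger, was at 0 in 16 libraries, and the transcription factors Klf1 and Gata1 in 23 and 25. The erythroid markers together summed to 0 to 115 CPM in dorsal controls, 0 to 38.0 in dorsal mutants, 3.27 to 25.0 in ventral controls, 0.0294 to 35.3 in ventral mutants, 17.4 to 89.9 in axon controls and 0 to 105 in axon mutants. The highest sums were those of dorsal control 3 (115 CPM) and axon mutant 3 (105 CPM), the libraries richest in haemoglobin. All erythroid markers were at 0 in 5 libraries, in which haemoglobin reached 9509 CPM. Their summed level had a Pearson correlation of 0.28 with summed haemoglobin over 27 libraries (both log2). The same correlation was -0.28 for the erythroid genes of membrane and cytoskeleton and 0.046 for haem synthesis and iron uptake. It was 0.41 for erythroid transcription factors and 0.027 for globin chaperone and red cell enzymes. Markers of megakaryocytes and platelets had -0.24, and those of macrophages and microglia -0.23.

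Other globin-fold genes were at 0 in most libraries. Hbq1a, Hbb-bh2 and Mb, the last encoding myoglobin of muscle, were at 0 in 27 of 27 libraries, and Hbq1b was detected in 1. Hbb-bh0, which lies in the beta-type cluster, was at 0 in 20 libraries and averaged 1.28 CPM. Neuroglobin (Ngb) was at 0 in 25 libraries and reached 82.1 CPM, and cytoglobin (Cygb) was at 0 in 15 and reached 21.5 CPM. The 7 genes of this list summed to 82.4 CPM in axon control 3 and to at most 21.5 CPM in the 26 others. The 5 genes outside the 7 whose log2(CPM + 1) was most like the log2 summed haemoglobin CPM, by Pearson correlation over 27 libraries among 11260 genes, were mt-Nd2 (0.66), Col3a1 (0.64), Rpl36a-ps2 (0.64), mt-Nd6 (0.63) and Kif5b (0.63). The members themselves reached 0.97 with each other.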

How the data were processed

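The deposited counts per gene were made by the authors from 150-base single-end Smart-seq2 reads of laser-captured pieces (Geo-seq, PCR amplified) with Seq2Science at default settings, STAR and HTSeq on mm10. Tool versions, annotation, strand setting and the treatment of reads with several matches are not given in the sources used here. The Salmon values and the tissue of an earlier stage were not used here. Of 55487 gene identifiers, 55141 were named through GENCODE M21, and the rest held 0.0148% of counts.

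CPM were computed from each library's total of 10.9 to 34.0 M counts. No molecular identifiers were used, so the floor of 3 counts (0.0883 to 0.275 CPM) covers counting error only. A gene was tested if over 10 counts were found in 3 or more libraries (16330 genes). The test was that of edgeR 4.0.16 (R 4.3.3; quasi-likelihood, TMM scaling, Benjamini-Hochberg over all genes). A call required an adjusted p below 0.05 with a log2 fold change beyond 0.58 in size, as in the study's methods. Genotypes were compared within a region with batch as a term. Regions and interactions were fitted with the embryo as a block. The embryo was taken as the genotype plus the number in the library's title, which is an inference. After removal of group means, libraries taken as 1 embryo correlated at a median of 0.0369 (27 pairs, from -0.0195 to 0.115, 2 above 0.1). The library of the same number was the best match in 17 of 27, so the counts bear out this pairing only weakly. The within-embryo values and sign-flip p rest on it. DESeq2 1.42.0, limma 3.58.1 (voom) and other settings were alternatives, and the fits were tested on simulated data. Exact permutation tests used log2(CPM + 1), 21 for genotypes and 21 for regions, not adjusted. Named genes are the 7 haemoglobin genes, other globin-fold genes, the 6 erythroid genes of highest mean CPM where none was called, and the 5 genes most alike. The red cell marker genes Alas2, Slc4a1, Klf1 and Gata1 were named as markers. The members and lists were chosen with earlier results of these data known.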

Additional observations from a re-analysis of the deposited data

Results flagged for a closer look

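A library was set aside for a closer look where its gap to the nearest library of its group was large against the range of the group (Dixon's criterion at 95%). Of 65 groups of values 15 held such a library, and for normally distributed values chance gives about 1 in 20. CPM entered without a log scale and were skewed, and each flagged library was the highest of its group, so this rate need not hold here. These values are not independent, since the genes vary together.

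Dorsal control 3 stood above the other dorsal controls for summed haemoglobin (24343 CPM), Hba-a1 (5217 CPM), Hba-a2 (3405 CPM), Hba-x (1815 CPM), Hbb-bs (5353 CPM) and Hbb-bt (1931 CPM). Axon mutant 3 stood above the other axon mutants for summed haemoglobin (33022 CPM), Hbb-y (10432 CPM) and Hbb-bt (2869 CPM). Axon control 3 was high for Hba-x (1181 CPM). The sparse gene Hbb-bh1 was high in dorsal control 1 (17.3 CPM), dorsal mutant 5 (78.0 CPM) and ventral control 4 (30.0 CPM). The embryonic share per kilobase was high in axon mutant 1 (73.6%), and the ratio of Hba-a1 to Hba-a2 counts in ventral mutant 5 (3.97).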

How the results depend on the processing

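The number of haemoglobin genes called was 0 in each of the 9 edgeR comparisons, and stayed 0 in 61 of 72 counts under another setting and in 80 of 81 that left out 1 embryo. Without the filter on low counts 1 gene was called in the dorsal genotype comparison (Hbb-y, 0.385% of all genes), 1 in the ventral (0.0298%) and 5 in the axon one (0.0467%). DESeq2 called 5 in dorsal against ventral (6.61% of all genes), 1 in dorsal against axons (20%) and 7 in ventral against axons (19.7%), and for the difference of the genotype effect 1 between dorsal and ventral (4.23%) and 3 between ventral and axons (9.68%). Limma voom called 6 in dorsal against ventral (0.331%), 6 in ventral against axons (1.68%) and 4 for the genotype effect in dorsal against axons (0.398%). Leaving out 1 embryo gave 0 to 1 in dorsal against axons, the 1 being Hba-a1 without control 3 (0.786% of all genes). The cause of these differences was not tested.

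The log2 fold change of mutant over control turned direction in some fits. In dorsal pieces that of Hba-a1 ran from -1.19 to 0.79 when 1 embryo was left out (0.79 without control 3, 0.0012 without mutant 4), and that of Hbb-y from -2.32 to 0.64 (0.64 without control 3), with 0.52 in limma voom. In ventral pieces the median of the 7 genes ran from -2.45 to -0.21, with 3 of 7 above 0 without mutant 4. In axon pieces that of Hbb-y ran from -0.25 (without control 1) to 2.05, with -0.22 in batch B alone, and that of Hba-a1 was -0.070 with a replicate block in place of batch. Controls and mutants of the same number did not vary together (12 pairs, correlations from -0.0509 to 0.0279), so they share only a number, and this replicate block called 0 genes in each region. With no replicate block in the region comparisons 0 genes were called as well, and the median log2 fold change of the 7 genes was 1.76, -0.86 and -2.54 for dorsal against ventral, dorsal against axons and ventral against axons. Among controls alone and mutants alone the medians for ventral against axons were -1.45 and -4.49, and in batches A and B -5.19 and -1.93.

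Without Hba-a1 and Hba-a2 the mean embryonic share was 68.4% in axon mutants, 65.5% in ventral controls and 50.0% in ventral mutants, against 48.0%, 45.0% and 30.1%, since definitive genes were left out.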
